A study of Homo sapiens with 8 samples.

Results

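The comparison set 2 arrays of cells carrying a short hairpin RNA against EZH2 (shEZH2) beside 2 arrays of cells carrying a hairpin against BMI1 (shBMI1), 4 of the 8 arrays in the study, chosen by their hairpin labels. The other 4 arrays held a hairpin against RING1B (shRING1B, 2 arrays) and one against GFP (shGFP, 2 arrays), a jellyfish protein that human cells lack. The cell line field reads SCC13 on all 8, an established human line of cutaneous squamous cell carcinoma, and no other treatment is named. The titles of the shEZH2 arrays carry another prefix (SCCL3) than those of the shBMI1, shRING1B and shGFP arrays (SCC13), so effects of the EZH2 hairpin and of any other line or batch behind that prefix cannot be told apart in any value below. Each target has 1 hairpin label, and nothing in the labels states that its 2 arrays are separate cultures. The p-values therefore cover only array-to-array spread, possibly technical. The measurement was total RNA hybridised to whole-transcript arrays, read as log2 expression per gene over 14884 named genes, so 1 unit is a doubling.

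EZH2 and BMI1 belong to different Polycomb complexes, which hold developmental genes silent. EZH2 is the methyltransferase of Polycomb repressive complex 2 and places trimethylation on lysine 27 of histone H3. BMI1 is a RING finger partner of RING1B in Polycomb repressive complex 1, which ubiquitinates histone H2A and can be recruited through the mark that EZH2 leaves. In skin both proteins are known for keeping epidermal progenitors dividing and differentiation genes off.

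The median probe set of each array was at 5.49 to 5.52. Across the named genes, Pearson's r was 0.992 to 0.993 between a shEZH2 and a shBMI1 array, and 0.995 to 0.996 within a hairpin. Of the 17 keratinocyte markers listed, 9 were measured. KRT5, the basal keratin, was at 10.37 and 10.17 with shEZH2, against 10.34 and 10.56 with shBMI1, and SFN, the stratifin of keratinocytes, was at 11.50 and 11.37 against 11.45 and 11.53. Both genes overlapped between the hairpins. Other markers went both ways: of the 9, 3 had positive and 6 negative differences, from -0.47 (DSC3, not called) to 0.91 (DSG3, called), with a median of -0.18 that was -0.02 without shBMI1 replicate 2. The mean level of the 9 markers was 8.36 and 8.41 with shEZH2, against 8.33 and 8.47 with shBMI1. Means over the markers of other cell types lay between 5.24 and 6.73 with shEZH2 and between 5.18 and 6.56 with shBMI1 (10 leukocyte, 4 fibroblast, 8 endothelial, 8 melanocyte and 6 neuronal or Merkel genes), and RMA values of an absent transcript do not reach 0.

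EZH2 mRNA was lower on the arrays of its own hairpin. It was at 8.95 and 9.03 with shEZH2, against 9.74 and 9.93 with shBMI1. The levels did not overlap, and the difference was -0.84 ± 0.12 (SE, n = 2 per group; limma, adjusted p = 0.021), a 1.79-fold lower level. The call was lost in 7 of 19 alternatives: at a minimum change of 1 log2 unit, which the difference does not reach, and with an adjusted p of 0.052 in a fit of the 4 compared arrays alone, 0.147 in a fit of every probe set, 0.0738 without shBMI1 replicate 1, 0.115 without shBMI1 replicate 2, 0.16 without shEZH2 replicate 1 and 0.146 without shEZH2 replicate 2. BMI1 was not analysed here, since no named probe set carries its symbol, so the depletion of BMI1 mRNA by its own hairpin was not checked. Of 10 measured subunits of Polycomb repressive complex 2, EZH2 was the only one to pass. PHF19 and MTF2, which help tether the complex to chromatin, had differences of -0.31 ± 0.08 and -0.26 ± 0.09 without passing, and EZH1, the paralogue of EZH2, had 0.04 ± 0.09. None of 16 measured subunits of Polycomb repressive complex 1 and none of 12 opposing enzymes passed by limma.

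Genes called higher with shEZH2 than with shBMI1 included amino acid synthesis enzymes, CLDN1 and CLDN7, S100 alarmins and cytokines. Genes called lower included SOX2 and ZIC2, the receptors AXL and IGF1R, and genes of replication and mitosis. SOX2 and ZIC2 were near shGFP with shEZH2 (0.07 and 0.12) and above it with shBMI1 (0.77 and 0.85). Calls in both directions were fragile: in 19 alternatives SOX2 was called in 9, ZIC2 in 10 and the replication gene MCM5 in 8. Among the higher genes the amino acid enzyme CBS was called in 6, S100P in 10 and CLDN7 in 15. Of 14884 genes, 145 passed an adjusted p under 0.05 (limma, Benjamini-Hochberg over all named genes, two-sided), which is 0.974% of those tested. Of these, 103 were higher with shEZH2 (0.692% of the genes tested) and 42 were lower (0.282%). A difference of at least 1 log2 unit was reached by 32 of the higher genes (0.215% of all genes) and 4 of the lower ones (0.0269%). Over all genes, 48.9% of differences were above 0 and 51.1% below. All 145 had both shEZH2 arrays on one side of both shBMI1 arrays, a pattern that 22.9% of all genes showed upward and 24.1% downward. With each array centred on its median the split was 87 higher and 67 lower. The count rested on each compared array: it was 2 without shEZH2 replicate 1, 11 without shEZH2 replicate 2, 18 without shBMI1 replicate 1 and 35 without shBMI1 replicate 2, and the count of lower genes was 22 without either shGFP array and 24 without either shRING1B array.

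**Figure D1:**
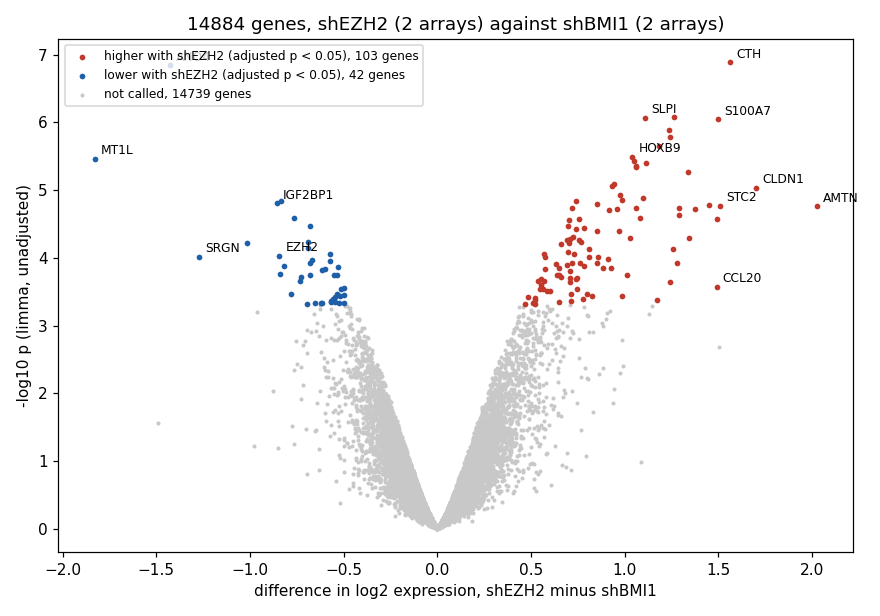
Each point is 1 of 14884 genes, with the difference in log2 expression (shEZH2 minus shBMI1) on the x axis and -log10 of limma's unadjusted p on the y axis. Red points are the 103 genes called higher with shEZH2 and blue points the 42 called lower, and CTH has the smallest p on the right.

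CTH and ANO4 passed in every one of the 19 alternative settings. CTH, cystathionine gamma-lyase, which makes cysteine from cystathionine, was at 9.87 and 9.74 with shEZH2, against 8.20 and 8.28 with shBMI1. The gap between the hairpins was wide beside the spread of each pair, and the difference was 1.56 ± 0.09 (SE; adjusted p = 0.00106), 2.96-fold. ANO4, a membrane protein of the anoctamin family, was at 5.92 and 5.98 with shEZH2, against 7.40 and 7.35 with shBMI1. Its difference was -1.43 ± 0.08 (adjusted p = 0.00106). On the shGFP arrays ANO4 was at 6.87 and 6.89, between the hairpins.

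**Figure D2:**
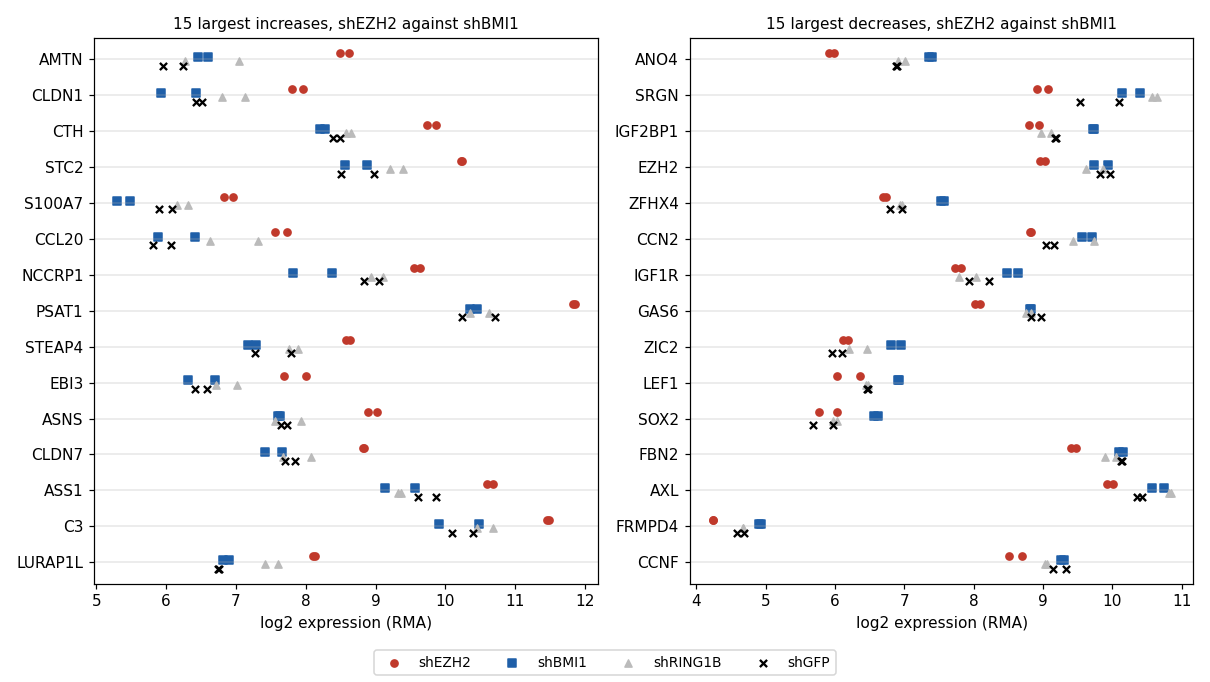
Log2 expression on each array for the 15 genes with the largest called increase (left) and the 15 with the largest called decrease (right), by short hairpin. Red circles are shEZH2, blue squares shBMI1, grey triangles shRING1B and black crosses shGFP, and for every gene shown both red circles lie on one side of both blue squares.

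Amino acid synthesis held the highest share of called genes among the lists with at least 10 measured members, all of them higher with shEZH2. The transcription factor ATF4 is known to activate many amino acid synthesis and stress genes when amino acids run short or the endoplasmic reticulum is stressed. Its part in the values here was not tested. Of 12 measured enzymes of serine, asparagine, cysteine and arginine synthesis, 6 were called higher and 0 lower, beside 0.692% of all genes called higher. The median difference was 0.79, beside a median of -0.005 over all genes. PSAT1, which makes phosphoserine, was at 11.86 and 11.84 with shEZH2, against 10.45 and 10.35 with shBMI1. The difference was 1.45 ± 0.16 (SE; adjusted p = 0.00845), and the levels were well apart. PHGDH, the first enzyme of serine synthesis, was at 9.47 and 9.35 with shEZH2, against 8.50 and 8.61 with shBMI1. PSPH, the last one, was at 10.51 and 10.55 against 9.89 and 9.56 without passing (0.80 ± 0.15, adjusted p = 0.058). ASNS, asparagine synthetase, was at 8.89 and 9.03 with shEZH2, against 7.63 and 7.61 with shBMI1, a 2.53-fold difference (adjusted p = 0.00543). ASS1, of arginine synthesis, and CBS, which feeds cystathionine to CTH, differed by 1.29 ± 0.15 and 0.78 ± 0.13 (adjusted p = 0.0099 and 0.0471). CBS was called in 6 of 19 alternatives. The 2 shBMI1 arrays of ASS1 lay apart, at 9.14 and 9.57, both under the shEZH2 levels of 10.60 and 10.68.

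Of 18 measured ATF4 targets and stress genes, 8 were called higher (44.4%, beside 0.692% of all genes) and 0 lower, with a median difference of 0.44. CTH, ASNS and PSAT1 are in both lists. STC2, a secreted stanniocalcin, was at 10.24 and 10.22 with shEZH2, against 8.87 and 8.57 with shBMI1 (1.51 ± 0.17, adjusted p = 0.00845). TRIB3, a pseudokinase that restrains ATF4, was at 9.73 and 9.58 against 8.56 and 8.69 (1.03 ± 0.13, adjusted p = 0.0153). The lipoprotein receptor VLDLR (1.02 ± 0.16), the leucine sensor SESN2 (0.78 ± 0.12) and XBP1, a factor of the unfolded protein response (0.65 ± 0.10), were also called. PCK2, a mitochondrial enzyme outside the list that makes phosphoenolpyruvate, was at 8.81 and 8.58 with shEZH2, against 7.53 and 7.63 with shBMI1 (1.11 ± 0.10, adjusted p = 0.00481). ATF4 mRNA itself differed by 0.10 ± 0.08 (adjusted p = 0.617), DDIT3 by 0.25 ± 0.12 (0.357) and ATF5 by -0.48 ± 0.12 (0.124), and none of the 3 passed. Of 17 cytosolic tRNA synthetases, enzymes that charge tRNAs with amino acids, 0 passed by limma, with 13 positive values and a median of 0.18. SARS1 and WARS1 led with 0.43 ± 0.08 and 0.41 ± 0.08 (adjusted p = 0.0645 and 0.074).

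ATF4 binds, with C/EBP partners, a composite element whose core can be written TGATGNAA. That motif was searched on both strands in the RefSeq promoter windows, 250 bases before to 50 after a start site (GRCh38.p14), where 1270 of 35116 windows (3.62%) held it. Counted by gene, 346 of the 10749 tested genes with a window held it (3.22%). Among the measured genes of the amino acid synthesis, ATF4 and tRNA synthetase lists, 11 of 38 did (28.9%). Of the 11 called genes of these lists 1 held it (ASNS), beside 5 of the 81 genes called higher that have a window (6.17%) and 1 of the 32 called lower (3.12%). A match is a description of these letters and not a binding site, and no match says only that the letters are not in the window. The 250 bases before the start site are shown for 4 genes, in lower case with the motif in capitals: CTH as the increase called in every alternative, with no match, ASNS as the called gene with a match, and GARS1 and AARS1, glycine and alanine tRNA synthetases, as genes with a match on the opposite strand that did not pass (0.30 ± 0.08 and 0.28 ± 0.09).
CTH, chr1:70411018-70411267, plus strand: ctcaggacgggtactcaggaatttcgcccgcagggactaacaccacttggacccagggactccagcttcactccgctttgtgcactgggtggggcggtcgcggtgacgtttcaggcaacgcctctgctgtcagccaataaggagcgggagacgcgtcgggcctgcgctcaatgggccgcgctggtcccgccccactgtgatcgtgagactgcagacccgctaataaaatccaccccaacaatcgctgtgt
ASNS, chr7:97872409-97872658, minus strand: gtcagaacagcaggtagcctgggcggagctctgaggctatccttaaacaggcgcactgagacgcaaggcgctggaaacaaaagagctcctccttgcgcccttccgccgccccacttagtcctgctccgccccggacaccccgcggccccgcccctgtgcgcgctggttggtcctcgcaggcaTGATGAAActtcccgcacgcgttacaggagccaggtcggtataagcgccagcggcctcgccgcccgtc
GARS1, chr7:30594628-30594877, plus strand: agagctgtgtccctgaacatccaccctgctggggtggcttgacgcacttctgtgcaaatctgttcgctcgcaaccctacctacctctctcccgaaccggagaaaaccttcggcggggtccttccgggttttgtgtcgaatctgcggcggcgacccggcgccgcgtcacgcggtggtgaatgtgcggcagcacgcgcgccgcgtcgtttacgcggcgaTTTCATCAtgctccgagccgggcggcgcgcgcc
AARS1, chr16:70289507-70289756, minus strand: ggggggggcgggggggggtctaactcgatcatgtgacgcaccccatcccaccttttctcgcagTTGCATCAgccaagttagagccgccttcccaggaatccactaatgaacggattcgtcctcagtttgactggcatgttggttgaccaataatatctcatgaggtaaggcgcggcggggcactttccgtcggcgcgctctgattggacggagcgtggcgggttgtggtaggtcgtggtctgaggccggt
The ASNS match begins 68 bases before the start site shown, the GARS1 match 33 bases and the AARS1 match 187 bases before it. ASNS and GARS1 each have another start site whose window held 0 matches, and the window with the match was chosen for display.

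CLDN1, CLDN7, OCLN and ST14 were higher with shEZH2 than with shBMI1. Of 24 measured tight and adherens junction genes, 4 were called higher (16.7%, beside 0.692% of all genes) and 0 lower. In this list 20 had positive values and the median difference was 0.23. Against shGFP the list's median was 0.115 with shEZH2 and -0.139 with shBMI1. CLDN1, the main claudin of the epidermal barrier, was at 7.80 and 7.95 with shEZH2, against 5.92 and 6.43 with shBMI1, a 3.26-fold difference (1.70 ± 0.17, adjusted p = 0.00768). OCLN, occludin, was at 7.31 and 7.19 with shEZH2, against 5.99 and 6.03 with shBMI1 (1.24 ± 0.10, adjusted p = 0.00325). The shGFP arrays of OCLN lay between, at 6.33 and 6.43, nearer to shBMI1. CLDN7, another claudin, differed by 1.29 ± 0.14 (adjusted p = 0.00845), and ST14, the membrane protease matriptase, by 0.54 ± 0.08 (adjusted p = 0.031). Against shGFP, ST14 was at 0.08 with shEZH2 and -0.46 with shBMI1, while CLDN1, CLDN7 and OCLN lay farther from shGFP with shEZH2. The adhesion molecule EPCAM was at 0.55 ± 0.13 without passing (adjusted p = 0.113). The desmosomal cadherin DSG3, a target of pemphigus antibodies, was at 10.33 and 10.37 with shEZH2, against 9.41 and 9.46 with shBMI1 (0.91 ± 0.13, adjusted p = 0.022). Against shGFP it was at 0.43 with shEZH2 and -0.48 with shBMI1. DSG3 was the only called gene of 17 measured in desmosomes and hemidesmosomes, where JUP and DSC2 were at 0.56 ± 0.12 and 0.55 ± 0.12 and DSC3 was at -0.47 ± 0.22, none of the 3 past the threshold. Of 23 keratins, 36 cornified envelope and barrier genes and 12 kallikreins, 0 passed by limma.

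Mesenchymal genes held 2 of the called decreases among 18 measured (11.1%, beside 0.282% of all genes), with 12 negative values and a median of -0.15. CCN2, a matricellular target of TGF-beta and YAP, was at 8.81 and 8.82 with shEZH2, against 9.56 and 9.71 with shBMI1 (-0.82 ± 0.12, adjusted p = 0.0245). A dimmer probe set of CCN2 gave -0.64. AXL, a receptor kinase, was at 10.01 and 9.93 with shEZH2, against 10.74 and 10.58 with shBMI1 (-0.69 ± 0.09, adjusted p = 0.0184), and GAS6, the ligand of AXL, was at 8.09 and 8.02 against 8.82 and 8.82 (-0.77 ± 0.09, adjusted p = 0.0102). The receptor and its ligand were both lower. VIM, the mesenchymal intermediate filament, was at -0.61 ± 0.15 and TAGLN at -0.59 ± 0.16, while LOXL2, which crosslinks collagen, was at 0.59 ± 0.11, and none of these passed (adjusted p = 0.105, 0.135 and 0.062). FBN2, a microfibril protein, was the only called gene of 22 measured matrix genes, at -0.69 ± 0.09. The fibroblast markers DCN and LUM had positive differences (0.49 ± 0.10 and 0.60 ± 0.23) and did not pass. The 4 measured fibroblast markers averaged 5.85 and 6.04 with shEZH2, against 5.65 and 5.81 with shBMI1, and their part in the matrix values was not tested.

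Several S100 alarmins were higher with shEZH2. Of 20 measured S100 and antimicrobial proteins, 5 were called higher and 0 lower, beside 0.692% of all genes called higher. The list had 18 positive values and a median difference of 0.24. S100A7, psoriasin, was at 6.82 and 6.95 with shEZH2, against 5.30 and 5.48 with shBMI1, a 2.82-fold difference (adjusted p = 0.00267). The shGFP arrays of S100A7, at 5.89 and 6.08, lay between the hairpins. S100A8 and S100A9 form calprotectin, a heterodimer that binds zinc and calcium. S100A8 was at 8.23 and 8.18 with shEZH2, against 7.40 and 7.07 with shBMI1, and S100A9 was at 9.31 and 9.21 against 8.23 and 8.12. Both partners were thus about as far apart, by 0.97 ± 0.12 and 1.08 ± 0.13 (adjusted p = 0.0131 and 0.0102). The secreted protease inhibitor SLPI was at 10.49 and 10.45 with shEZH2, against 9.36 and 9.36 with shBMI1 (1.11 ± 0.08, adjusted p = 0.00267). S100P differed by 0.99 ± 0.17 (adjusted p = 0.0447).

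Among inflammatory genes, 2 of 34 chemokines, 3 of 22 cytokines and 3 of 23 NF-kB subunits and targets were called higher and 0 lower. Over all genes the share called higher was 0.692%. CCL20, which attracts dendritic cells and lymphocytes through CCR6, was at 7.55 and 7.73 with shEZH2, against 5.89 and 6.41 with shBMI1. The shBMI1 arrays differed by more than the shEZH2 arrays did, and the difference was 1.49 ± 0.24 (adjusted p = 0.0363). CXCL16, a membrane-bound chemokine, was at 9.29 and 9.17 against 8.68 and 8.69 (0.55 ± 0.09, adjusted p = 0.0381). The neutrophil attractant CXCL8 was at 7.66 and 7.77 with shEZH2, against 6.83 and 6.87 with shBMI1, and did not pass (0.87 ± 0.23, adjusted p = 0.131), and the interferon-induced CXCL10 was at -0.77 ± 0.34. The median over the chemokines was 0.03, which was -0.02 with median centring and 0.12 without shEZH2 replicate 1. EBI3, the shared subunit of interleukins 27 and 35, differed by 1.34 ± 0.17, IL32 by 0.92 ± 0.10 and LIF, of the interleukin 6 family, by 0.76 ± 0.09 (adjusted p = 0.0153, 0.00871 and 0.0102). CSF3 was at 0.94 ± 0.27 and IL24 at 0.94 ± 0.30, without passing.

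Complement C3, the central complement protein, was at 11.48 and 11.46 with shEZH2, against 9.91 and 10.47 with shBMI1 (1.28 ± 0.19, adjusted p = 0.0233). Complement factor B (CFB), its partner in the alternative pathway convertase, was at 7.33 and 7.28 against 6.62 and 6.58 (0.70 ± 0.08, adjusted p = 0.0102). Both arrays with shEZH2 were above both with shBMI1 for each of the 2, as for every gene called higher. The acute phase protein SAA1 was at 6.70 and 6.52 with shEZH2, against 5.12 and 5.76 with shBMI1 (1.17 ± 0.20, adjusted p = 0.0481), and NFKB2 and TNIP1 were at 0.58 ± 0.13 and 0.64 ± 0.15 without passing. SAA1 has near-identical neighbours, so its value is uncertain, and it was called in 7 of 19 alternatives. The NF-kB list had 21 positive values of 23 and a median of 0.32. Of 10 leukocyte markers, 8 had positive differences and 0 passed by limma. Their mean level was 6.72 and 6.73 with shEZH2, against 6.56 and 6.50 with shBMI1. Melanocyte and neuronal or Merkel markers leaned the same way (6 of 8 and 5 of 6 positive), and endothelial and fibroblast markers were split (4 of 8 and 2 of 4). The part of leukocyte markers in the inflammatory values was not tested. In bulk RNA a change in the number of cells of a type and a change of RNA per cell cannot be told apart. Of 10 immune checkpoint ligands, CD274, which encodes PD-L1, was the only one called. It was at 7.28 and 7.17 with shEZH2, against 7.88 and 7.91 with shBMI1 (-0.67 ± 0.10, adjusted p = 0.0225).

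None of 34 interferon-response genes passed by limma, and none of 6 antigen presentation genes did. IFIT1, an interferon-induced protein that binds viral RNA, was at 4.99 and 5.26 with shEZH2, against 6.11 and 7.12 with shBMI1. The shBMI1 arrays lay 1 unit apart, the shGFP arrays were at 5.87 and 7.31 and the shRING1B arrays at 4.85 and 6.18. In each of these pairs replicate 2 was higher, as it was for IFI44, IFIT2, IFIT3 and OASL. The IFIT1 difference of -1.49 ± 0.56 did not pass (adjusted p = 0.26). The list had 25 negative values and a median of -0.09, which was -0.25 without shBMI1 replicate 1 and -0.02 without shBMI1 replicate 2.

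Developmental transcription factors, the classical Polycomb targets, were called in both directions. Of 99 measured homeobox, SOX, FOX, GATA, TBX and ZIC factors and others, 2 were higher and 3 were lower (5.05% called, beside 0.974% of all genes). The median difference was -0.02, which was 0.008 without shEZH2 replicate 2 and -0.075 with median centring. HOXB9, a posterior HOX gene, was at 9.73 and 9.72 with shEZH2, against 8.70 and 8.67 with shBMI1 (1.04 ± 0.09, adjusted p = 0.00481). Its cluster neighbours HOXB8, HOXB7 and HOXB6 had differences of -0.02 ± 0.12, -0.00 ± 0.11 and -0.22 ± 0.11 and did not pass. GATA6 was at 8.86 and 8.60 with shEZH2, against 8.02 and 7.96 with shBMI1 (0.74 ± 0.12, adjusted p = 0.0299). The 3 lower factors of this list are best known from neural tissue. The homeobox genes ZFHX4 (-0.84), ISL1 (-0.57) and MKX (1.06) were also called but are outside the list, so its counts do not cover every such gene. ZIC2, a zinc finger factor of the neural tube, was at 6.18 and 6.11 with shEZH2, against 6.96 and 6.80 with shBMI1 (-0.73 ± 0.12, adjusted p = 0.031). SOX2, a stem cell factor also found in squamous carcinomas, was at 5.77 and 6.02 with shEZH2, against 6.62 and 6.56 with shBMI1 (-0.70 ± 0.12, adjusted p = 0.0495). POU4F1, a factor of sensory neurons, was at -0.62 ± 0.11 (adjusted p = 0.049). SOX2 and POU4F1 stood close to the threshold.

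**Figure D3:**
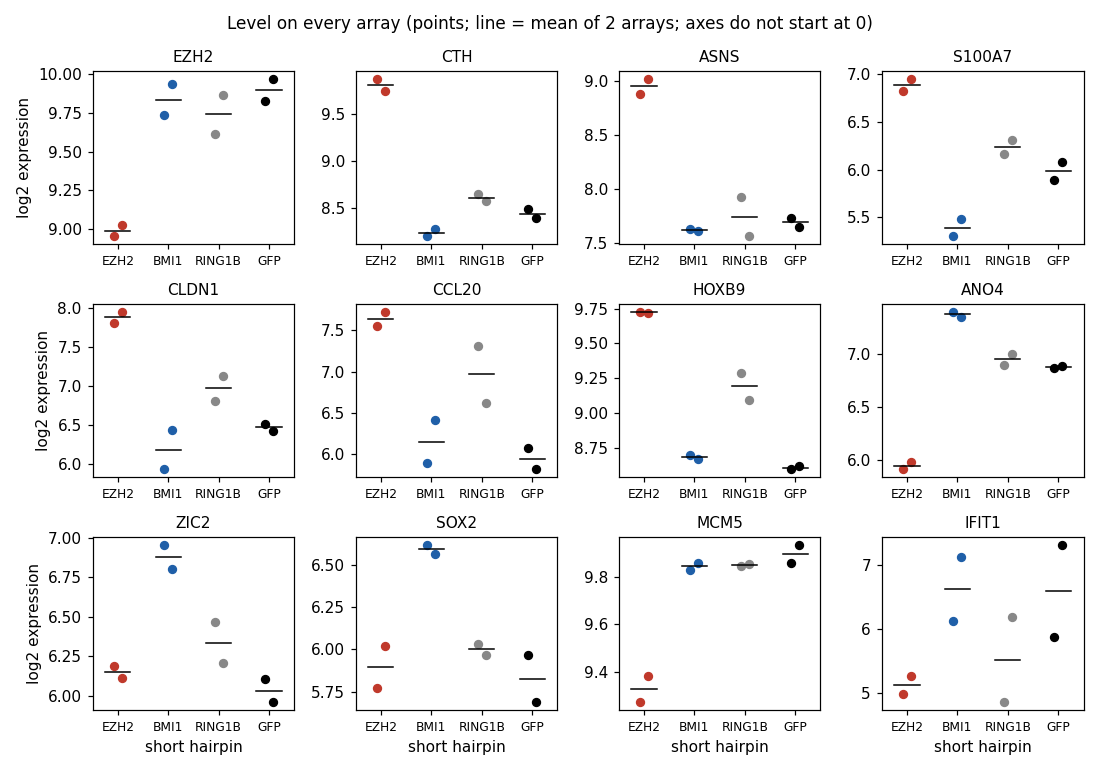
Log2 expression of 12 genes on each of the 8 arrays, grouped by short hairpin (EZH2, BMI1, RING1B, GFP), with a line at the mean of each pair. ASNS and CTH stand above all other arrays with shEZH2, and HOXB9 is highest with shEZH2 and next with shRING1B. ZIC2 and SOX2 stand high with shBMI1, and IFIT1 varies widely within the shBMI1, shRING1B and shGFP pairs.

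The position of the shGFP arrays shows on which side each called difference lay. The shEZH2 and shBMI1 arrays were both set against the same shGFP arrays here, so the 2 sets of values are not independent, and they are given as a description. Over the 145 called genes, the median size of the difference from shGFP was 0.65 for shEZH2 and 0.16 for shBMI1. By limma, 109 genes (0.732%) passed between shEZH2 and shGFP, and 0 (0%) between shBMI1 and shGFP, where 830 had an unadjusted p under 0.05. In 22 of the 145 genes, 10 higher and 12 lower with shEZH2, the shBMI1 mean lay farther from shGFP than the shEZH2 mean did. For ZFHX4, a zinc finger homeodomain factor, the levels were 6.74 and 6.70 with shEZH2, against 7.57 and 7.53 with shBMI1 (-0.84 ± 0.09, adjusted p = 0.00845), and shGFP was at 6.96 and 6.79. ZIC2 and SOX2 belong here as well: against shGFP they were at 0.12 ± 0.12 and 0.07 ± 0.12 with shEZH2 and at 0.85 ± 0.12 and 0.77 ± 0.12 with shBMI1 (adjusted p = 0.223 and 0.316 for shBMI1). These 22 genes were picked by their values, so their pattern was not tested.

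IGF2BP1, an RNA-binding protein of fetal tissues that stabilises growth-related mRNAs, was at 8.79 and 8.94 with shEZH2, against 9.72 and 9.73 with shBMI1 (-0.86 ± 0.09, adjusted p = 0.00845), and shGFP was at 9.18 on both arrays. IGF1R, the receptor of insulin-like growth factor 1, was at 7.73 and 7.82 with shEZH2, against 8.64 and 8.48 with shBMI1 (-0.78 ± 0.13, adjusted p = 0.0424). LEF1, a transcription factor of the Wnt pathway, was at 6.03 and 6.35 with shEZH2, against 6.91 and 6.93 with shBMI1 (-0.73 ± 0.11, adjusted p = 0.0294). All 3 were above shGFP on the shBMI1 arrays. On the other side, NCCRP1, an F-box-like protein of stratified epithelium, was at 9.63 and 9.55 with shEZH2, against 7.82 and 8.38 with shBMI1, and shGFP lay between, at 8.84 and 9.05. The difference was 1.49 ± 0.18 (adjusted p = 0.0102). ADIRF, named for adipogenesis, was at 7.46 and 7.40 with shEZH2, against 6.52 and 6.63 with shBMI1, with shGFP at a mean of 7.27. RIPK3, the kinase of necroptosis, was at 5.88 and 5.91 against 5.17 and 5.14 (0.74 ± 0.08, adjusted p = 0.00845), with shGFP between at 5.55 and 5.50.

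**Figure D4:**
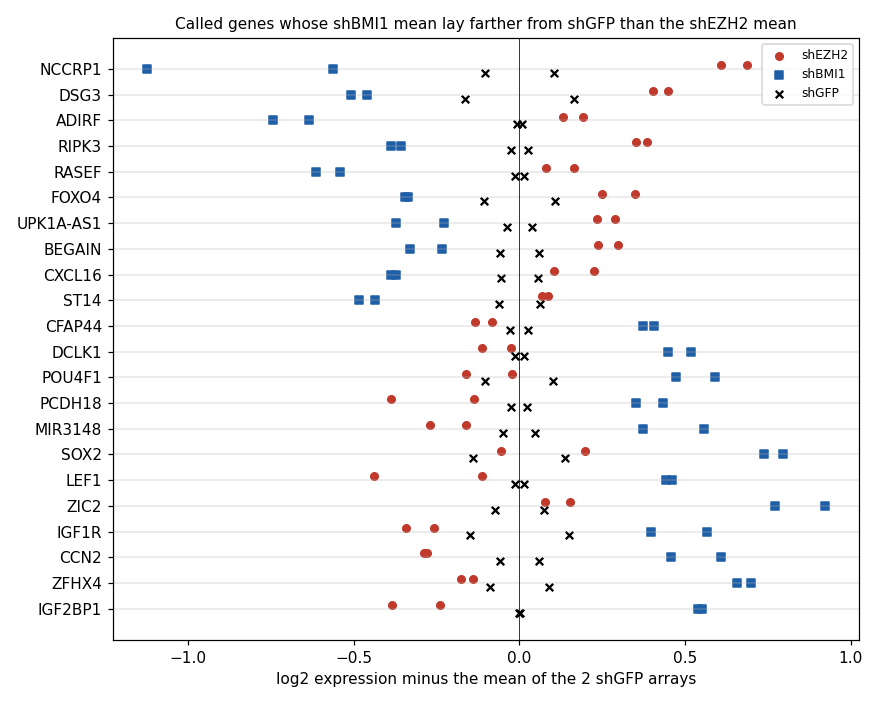
The 22 called genes whose shBMI1 mean lay farther from shGFP than the shEZH2 mean, as log2 expression minus the mean of the 2 shGFP arrays, per array. Red circles (shEZH2) and blue squares (shBMI1) lie on opposite sides of the shGFP mean for most of them, with the 10 genes higher with shEZH2 above and the 12 lower ones below, and black crosses are the shGFP arrays.

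Cell cycle genes had small negative differences, of which few passed. Of 53 measured genes of mitosis and G2/M, 4 were called lower (7.55%, beside 0.282% of all genes) and 0 higher. In this list 52 had negative values and the median difference was -0.32. KIF18B, a mitotic kinesin, was at 9.88 and 9.81 with shEZH2, against 10.43 and 10.49 with shBMI1 (-0.61 ± 0.09, adjusted p = 0.0253). The centromere protein CENPI, the cohesin protector SGO2 and CDCA3 were lower with shEZH2 by 0.55 ± 0.09, 0.55 ± 0.10 and 0.53 ± 0.09 (adjusted p = 0.045, 0.0488 and 0.049). CENPI, SGO2 and CDCA3 were each called in 6 of 19 alternatives, and KIF18B in 12. Among 31 DNA replication and G1/S genes 2 were called lower (6.45%), 30 were below 0 and the median was -0.31. MCM5, part of the replicative helicase, was at 9.27 and 9.38 with shEZH2, against 9.83 and 9.86 with shBMI1 (-0.51 ± 0.08, adjusted p = 0.0381), and MCM10, an initiation factor, had -0.50 ± 0.09 (adjusted p = 0.0493). MCM5 was called in 8 of 19 alternatives and MCM10 in 6. CCNF, an F-box cyclin, and the centrosomal kinase NEK2, both outside the lists, had -0.68 ± 0.10 and -0.62 ± 0.11 (adjusted p = 0.0282 and 0.049). MKI67 was at -0.41 ± 0.10 without passing. Ribosomal protein genes had 20 of 21 negative values on the same arrays, a median of -0.12 (-0.19 without shEZH2 replicate 1) and 0 calls by limma, and their part in these values was not tested. The mean level over the G2/M list was 9.53 on both shEZH2 arrays, against 9.90 and 9.83 with shBMI1.

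**Figure D5:**
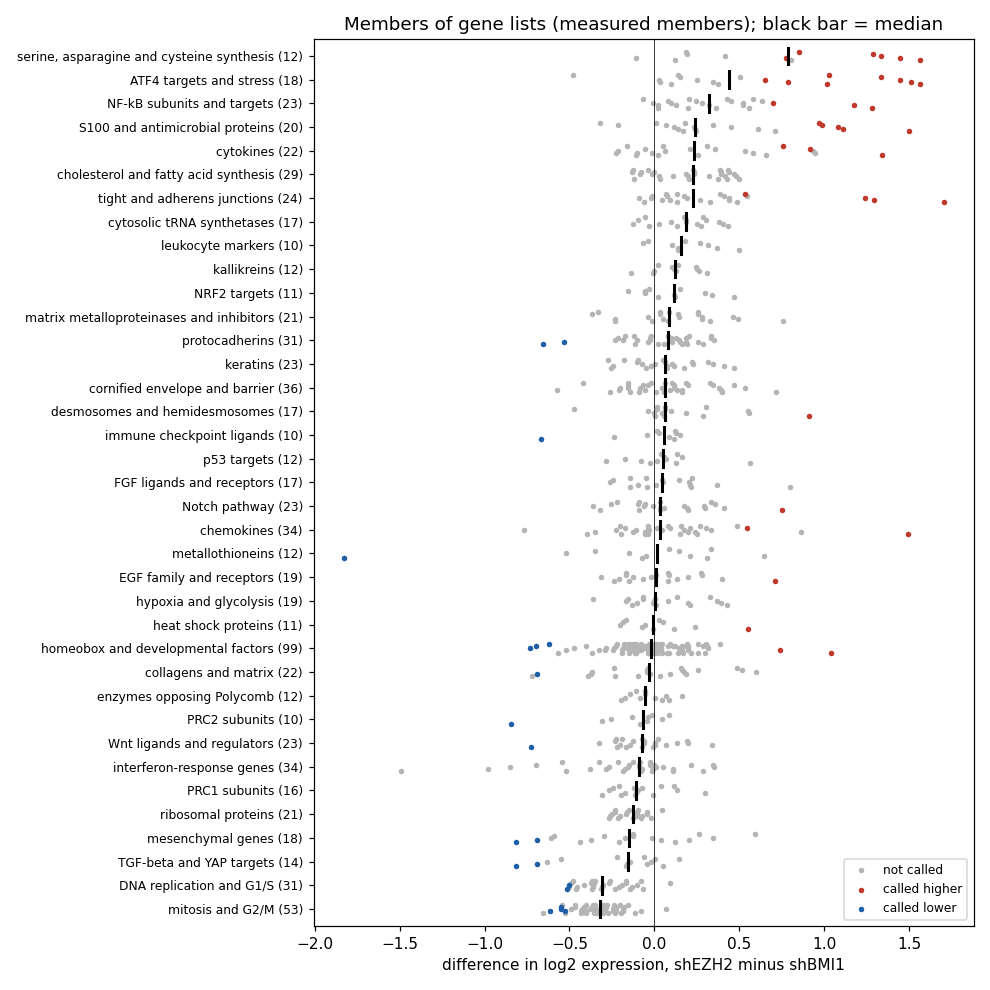
Differences in log2 expression (shEZH2 minus shBMI1) of the members of each gene list with at least 10 measured genes, 1 point per gene, with a black bar at the list's median. Red points are called higher and blue points called lower, and the lists run from amino acid synthesis at the top (median 0.79) to mitosis and G2/M at the bottom (median -0.32).

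The gene with the largest called increase was AMTN, amelotin, an enamel matrix protein. It was at 8.62 and 8.49 with shEZH2, against 6.60 and 6.46 with shBMI1, a 4.07-fold difference (2.03 ± 0.22, adjusted p = 0.00845). STEAP4, a metalloreductase induced by inflammation, was at 8.58 and 8.63 with shEZH2, against 7.28 and 7.18 with shBMI1 (1.37 ± 0.15, adjusted p = 0.00845). LURAP1L was at 8.14 and 8.11 with shEZH2, against 6.81 and 6.90 with shBMI1 (1.26 ± 0.09, adjusted p = 0.00267). Like every called gene, these 3 did not overlap between the hairpins, and on the shRING1B arrays LURAP1L stood between, at 7.41 and 7.60. Among decreases, SRGN, the proteoglycan serglycin, was at 8.91 and 9.08 with shEZH2, against 10.39 and 10.14 with shBMI1 (-1.27 ± 0.18, adjusted p = 0.021). FRMPD4, a scaffold protein of synapses, was at 4.23 and 4.24 against 4.90 and 4.93 (-0.68 ± 0.08, adjusted p = 0.0122). MT1L, a metallothionein pseudogene, had the most negative called difference and was the only call among 12 metallothioneins. It was at 6.01 and 6.34 with shEZH2, against 7.90 and 8.11 with shBMI1 (-1.83 ± 0.16, adjusted p = 0.00481), but probes may take up RNA of its near-identical relatives, so the value is uncertain.

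Some signalling and adhesion lists held 1 or 2 calls, where 0.974% of all genes were called. JAG2, a Notch ligand, was the only call of 23 Notch pathway genes, BTC, a ligand of the EGF receptor, of 19 EGF family genes, and the small chaperone HSPB8 of 11 heat shock genes, all higher with shEZH2 (0.75, 0.71 and 0.55). LEF1 was the only call of 23 Wnt genes. Of 31 protocadherins, adhesion molecules best known from neurons, PCDH18 (-0.65) and PCDH7 (-0.53) were called lower, while the list's median was 0.08, which was -0.02 without the dimmest 30% of genes and 0.13 without shEZH2 replicate 1. CCN2 and AXL were the 2 calls of 14 TGF-beta and YAP targets.

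Lipid synthesis genes had mostly positive values without calls. Of 29 measured cholesterol and fatty acid synthesis genes, 0 passed by limma, 22 had positive values and the median was 0.23, which was 0.14 without shBMI1 replicate 1. The desaturase FADS1 was at 9.12 and 9.09 with shEZH2, against 8.58 and 8.64 with shBMI1 (0.50 ± 0.09, adjusted p = 0.056), so its arrays did not overlap but it missed the threshold. No gene of the hypoxia and glycolysis, NRF2 target, p53 target, FGF, or matrix metalloproteinase lists passed either. The CDKN2A transcript, a locus classically silenced by Polycomb, averaged 6.94 with shEZH2 and 6.98 with shBMI1, and the arrays overlapped (-0.04 ± 0.09, 95% interval of the difference -0.24 to 0.16).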

How the data were processed

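The values the authors deposited are log2 expression levels of probe sets. The submitters' processing notes name RMA and limma, with no versions. No source used here gives the probe set library or genome build. RMA equalises the arrays' distributions, which hides a change common to most genes and shrinks differences of dim ones.

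Of 53617 probe sets, 16098 were named through the array's annotation table, with symbols updated by gene identifier through RefSeq, and 37519 were unnamed and left out of the tests by gene. Each gene was represented by its probe set with the highest mean over all 8 arrays (779 genes had several), which gave 14884 genes, 11915 of them protein-coding. Values from near-identical gene copies can be mixed.

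limma 3.58.1 in R 4.3.3 fitted a mean per hairpin over all 8 arrays (4 residual degrees of freedom) with empirical Bayes moderation, and the contrast was shEZH2 minus shBMI1. Errors after a difference are standard errors. An adjusted p under 0.05 (Benjamini-Hochberg over all genes, two-sided) was called. With 2 arrays against 2 an exact permutation test cannot go below p = 0.333, and the number of arrays limits the precision. The fit was tested on simulated data.

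The named genes are the 15 largest called increases and 15 largest called decreases with non-overlapping arrays (uncharacterised, small RNA, antisense, olfactory receptor, keratin-associated and pseudogene symbols left out), the targeted genes, and up to 5 members with the largest difference from each gene list. Other genes were chosen after their values were seen. The comparison and the 48 gene lists were chosen with earlier results of these data known. Integrins and amino acid transporters, 2 of these lists, were not analysed here because no member was named. Lists are described by counts and medians. Alternatives tried were a replicate block, only the compared arrays, other normalizations, filters, probe set rules, variance models and leaving out each array.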

Additional observations from a re-analysis of the deposited data

Results flagged for a closer look

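The 37519 probe sets with no gene name entered no comparison by gene. In a fit over all 53617 probe sets, 3 of them passed an adjusted p under 0.05 between shEZH2 and shBMI1, beside 6 of the named ones. Probe set 16976615 was at 8.17 and 8.14 with shEZH2, against 6.58 and 6.61 with shBMI1 (1.56 ± 0.12 SE, limma adjusted p = 0.037), and averaged 6.29 on the shGFP arrays. Probe set 16979917 was at 10.15 and 10.20 with shEZH2, against 8.52 and 8.83 with shBMI1 (1.498 ± 0.13, adjusted p = 0.0491), with a mean of 8.67 on the shGFP arrays. Probe set 16762661 was at 6.64 and 6.70 with shEZH2, against 8.29 and 8.13 with shBMI1 (-1.54 ± 0.13, adjusted p = 0.0491), with a mean of 8.33 on the shGFP arrays.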

How the results depend on the processing

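All 145 called genes kept the sign of their difference in each alternative that included them (17 to 19 of the 19 tried). Filters removed some genes from the others. The kept sign was largely given in advance and is no support. For genes whose arrays do not overlap, leaving out 1 array cannot reverse the sign, and most other alternatives reuse the same values. The number of calls did not hold. The 145 calls (103 higher, 42 lower) became 57 (48 and 9) with only the 4 arrays compared, 445 (285 and 160) without the dimmest 30% of genes, 320 (215 and 105) over protein-coding genes alone, 640 (357 and 283) with a trended robust variance, 36 (32 and 4) at a minimum change of 1 log2 unit and 9 (7 and 2) over all probe sets. Median centring gave 87 higher and 67 lower genes and moved the median over all genes to -0.06. Leaving out 1 array gave 2 to 106 calls, 1 to 82 higher and 1 to 24 lower. Only ANO4 and CTH were called without each of the 4 compared arrays in turn. The EZH2 difference ran from -0.94 to -0.75 when 1 array was left out, and it was -0.84 with only the compared arrays and over all probe sets, where its call was lost. Arrays with equal replicate numbers were not taken as pairs: their deviations correlated at 0.09 between shEZH2 and shBMI1, at 0.25 between shBMI1 and shGFP, at 0.12 between shRING1B and shGFP, and at 0.001 to 0.09 in the other 3 combinations. With the replicate number as a block there were 131 calls (100 higher, 31 lower), 112 of them shared with the 145. The cause of these shifts was not tested. List medians moved by more than the spread between arrays in 32 cases. Among them, cytokines had 0.58 without the dimmest genes and 0.16 without shEZH2 replicate 2, beside 0.23. ISL1, called at -0.57, had 0.19 on its dimmer probe set.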

Other observations

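Several called genes lay outside every list and were chosen after their values were seen. Among genes of transcription, AHR, the aryl hydrocarbon receptor, averaged 10.55 with shEZH2 and 9.98 with shBMI1 (0.57 ± 0.08 SE, limma adjusted p = 0.021). EHF, an epithelial ETS factor, was at 8.86 and 8.86 against 8.03 and 8.28 (0.71 ± 0.11, adjusted p = 0.0258). FOXO4 and the AP-1 member JUND were higher by 0.64 ± 0.10 and 0.60 ± 0.10. HMGA2, a chromatin protein of fetal tissue that is often high in tumours, was at 8.67 and 8.58 with shEZH2, against 9.25 and 9.13 with shBMI1 (-0.57 ± 0.10, adjusted p = 0.0488). Like every called gene, the 4 factors that were higher did not overlap between the hairpins, nor did HMGA2. BMP2, a bone morphogenetic protein, was at 7.35 and 7.33 with shEZH2, against 6.57 and 6.57 with shBMI1 (0.77 ± 0.10, adjusted p = 0.016).

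Metabolic genes outside the amino acid lists were also called. UPP1, uridine phosphorylase, was at 9.88 and 9.78 with shEZH2, against 8.73 and 8.73 with shBMI1 (1.10 ± 0.12, adjusted p = 0.00845). The arrestin-domain proteins ARRDC4 and ARRDC3, which act in the uptake and turnover of membrane proteins, were higher by 1.18 ± 0.10 and 0.72 ± 0.10 (adjusted p = 0.0041 and 0.0233). The mitochondrial aldehyde dehydrogenase ALDH2 was at 9.47 and 9.50 against 8.36 and 8.75, and KYNU, kynureninase of tryptophan breakdown, was at 9.96 and 9.94 against 9.22 and 9.29. With the genes split by level into 4 equal classes, 0.215% were called in the dimmest, 0.941% in the next, 1.45% in the one after and 1.29% in the brightest.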
